A study of Mus musculus with 1047 samples.

Results

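The iron storage and transport genes Fth1, Ftl1, Slc11a1, Slc40a1, Tfrc and Hmox1 were followed in microglia of aged mice. They were chosen by name, as 6 of 18081 gene symbols measured in the aged animals and of 16012 in the 5xFAD experiment, and all 6 were present in both sets. The series asks how microglia of white matter differ from those of grey matter in old mice. Sorted microglia were sequenced one by one in plates (Smart-seq2, 1 cell per well). Brain cells were also sequenced by 10x, a droplet method that counts molecules by unique identifiers (UMIs).

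Iron enters most cells bound to transferrin through the transferrin receptor, which Tfrc encodes, and leaves phagosomes and lysosomes of macrophages through the divalent metal transporter that Slc11a1 encodes. Iron that is not used is stored inside ferritin, a shell of heavy chains (Fth1) and light chains (Ftl1), or is exported by ferroportin (Slc40a1), while heme oxygenase 1 (Hmox1) frees iron from heme. Microglia are the resident macrophages of the brain, and in white matter they take up myelin debris and lie next to oligodendrocytes, which are rich in iron.

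Part of this gene set is read by iron regulatory proteins, which bind a hairpin in the mRNA called the iron-responsive element when iron is scarce. Bound in the 5′ untranslated region (UTR), they block translation, and bound in the 3′ UTR, they protect the mRNA. These elements are shown because they set the members apart by how iron is known to control them, and because control of translation does not show in read counts. The elements were found in the GENCODE transcripts (GRCm38) on the sense strand, as a C, then 5 bases, the 6-base loop CAGTGN and 5 bases that pair with the first 5, with G-T pairs allowed. The loop is in capitals, and each sequence is 5′ to 3′ and 27 bases long.
Fth1, 5′ UTR, chr19:9982733-9982759, plus strand: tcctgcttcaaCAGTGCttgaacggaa
Ftl1, 5′ UTR, chr7:45459780-45459806, minus strand: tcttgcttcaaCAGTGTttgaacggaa
Slc40a1, 5′ UTR, chr1:45925466-45925492, minus strand: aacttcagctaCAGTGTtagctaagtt
Tfrc, 3′ UTR, chr16:32631220-32631246, plus strand: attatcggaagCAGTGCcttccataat
Tfrc, 3′ UTR, chr16:32631599-32631625, plus strand: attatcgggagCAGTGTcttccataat
Tfrc, 3′ UTR, chr16:32631664-32631690, plus strand: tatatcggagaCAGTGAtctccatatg
Tfrc, 3′ UTR, chr16:32631711-32631737, plus strand: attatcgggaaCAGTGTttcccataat
The motif lay in the 5′ UTR of 3 of the 6 members, against 31 of 20899 genes with a 5′ UTR (0.148%). In the 3′ UTR it lay in 1 member, Tfrc, which holds 4 copies, against 129 of 21022 genes (0.614%). No match was found in Slc11a1 or Hmox1, which says only that these letters are not in their annotated transcripts. The genes lie on GRCm38 at chr19:9980598-9985098 (Fth1), chr7:45457944-45459884 (Ftl1), chr1:74375195-74386062 (Slc11a1), chr1:45908068-45926523 (Slc40a1), chr16:32608920-32632794 (Tfrc) and chr8:75093621-75100589 (Hmox1).

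Per the labels, aged WT mice were C57BL/6J males of 18 or 19 months, except A1, a female of 19 months with grey matter cells only. Animals labelled Trem2ko (strain given as Trem2ko only) were A8 (male) and A9 and A10 (female) at 20 months, A11 (female) and A12 (male) at 18 months and A13 (female) at 28 months. Trem2 encodes a lipid-sensing receptor of microglia. Grey matter was frontal cortex, and white matter was pooled from medial lemniscus, corpus callosum and optic tract. Prefrontal cortex came from 5xFAD mice, which carry human amyloid transgenes (strain given as 5xFAD), A91, A93, A99 and A100 (female, 7 months) and A187 (male, 5 months), and from C57BL/6J WT females A132 (7 months) and A173 (6 months). A pool of 3 mice at postnatal day 14 (C57BL/6J CX3CR1-GFP, males and females) gave 75 prefrontal cortex cells, whose treatment with actinomycin D the labels do not give cell by cell. Per the labels, the aged, 5xFAD, adult WT prefrontal cortex and 10x tissue was dissociated with actinomycin D, which blocks transcription. In the plate data, cells positive for CD45 and CD11b and negative for the dead-cell dye 7AAD were sorted.

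The replicate was the animal, and its cells of 1 tissue were added up to a library where there were 5 or more. This left 136 white and 147 grey matter samples of 6 and 7 WT animals (single cells, except that the 33 grey matter samples of A5 came from 31 wells), and 5 Trem2ko-labelled animals in each tissue, while A13 and A187 had 4 cells or fewer in a tissue. Summed libraries held 570371 to 59659665 reads, with a median per cell of 77892 reads in WT grey matter and 284697 in Trem2ko white matter. The levels below are CPM, the reads of a gene scaled to a common library total. All 15 microglial markers were detected in the aged groups, and together they took 73555 to 106071 CPM. Reads of Trem2 itself stood at 1799 to 5216 CPM in WT libraries and at 275 to 708 CPM in A8 to A11, but at 2034 (white) and 1455 CPM (grey) in A12, whose level goes against its label in white matter. A13, whose few cells entered none of the reported tests, held 2774 (white) and 2281 CPM (grey), inside the WT range and against its label too. Results on Trem2ko-labelled animals are therefore also given without A12, together further on where not beside the value. Plates held 1 genotype each, and A11, A12 and A13 were counted in a separate and deeper part of the data, so genotype and plate cannot be told apart.

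Per kilobase of the first annotated transcript, Fth1, Ftl1 and Slc11a1 led in that order in the 4 aged and both adult prefrontal cortex groups. Fth1 was highest, with group medians of 5057 CPM per kilobase in WT white matter, 2496 in WT grey matter, 2862 in Trem2ko white matter and 2300 in Trem2ko grey matter. Ftl1 was second, at 1103 CPM per kilobase in WT white and 802 in WT grey matter, followed by Slc11a1, at 290 and 271. The order of the medians of the next 2 genes turned with tissue in both genotypes, and their ranges over animals overlapped. In WT grey matter these were 0.534 to 84.4 (Hmox1) and 1.26 to 75.3 CPM per kilobase (Slc40a1), and in WT white matter 2.79 to 102 and 3.03 to 34.6. Hmox1 stood above Slc40a1 in WT white matter (39.0 and 12.5 CPM per kilobase) and in Trem2ko white matter (42.6 and 18.6), and below it in WT grey matter (8.68 and 33.1). In Trem2ko grey matter Hmox1 stood just below Slc40a1, at 46.2 and 46.9, a gap far within the range over animals. Over all annotated exons Hmox1 stood above there (41.4 and 17.6). Tfrc was last in each group, with a median of 0 in 3 of the 4 aged groups.

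Fth1, the ferritin heavy chain that oxidises iron for storage, was higher in white than in grey matter in 11 of 11 animals. In WT white matter its level was 2778 CPM in A2, 5242 in A3, 7033 in A4, 6441 in A5, 2342 in A6 and 4155 in A7 (mean 4665 ± 1914, SD, n = 6). In the grey matter of the same animals it was 2532, 3340, 2084, 2319, 1602 and 2756 CPM, and 1682 CPM in A1 (mean over all 7 animals 2331 ± 613, SD). By summed reads the gap was widest in A4 and A5 and narrowest in A2, and the groups overlapped through A2 and A6. The size of the gap in A5 rests on few cells, since 33.1% of its white matter Fth1 reads came from 1 cell. Its medians over cells were 2833 (white) and 2406 CPM (grey), against 2596 and 1670 CPM in A2. In Trem2ko-labelled white matter the level was nearly the same in every animal, at 2659, 2617, 2744, 2594 and 2780 CPM from A8 to A12. Their grey matter held 1594, 2430, 2314, 2136 and 1721 CPM in the same order. White over grey matter came to 1.10 to 3.38 in WT and to 1.08 to 1.67 in Trem2ko-labelled animals. The direction did not rest on a few cells, since the median over cells was higher in white matter in 10 of 11 animals, all but A9, and no more than 39.4% of a library's Fth1 reads came from 1 cell. Of all genes tested, 1.18% were higher in white matter in every WT animal, 2.83% in every Trem2ko-labelled animal and 0.254% in all 11.

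**Figure D1:**
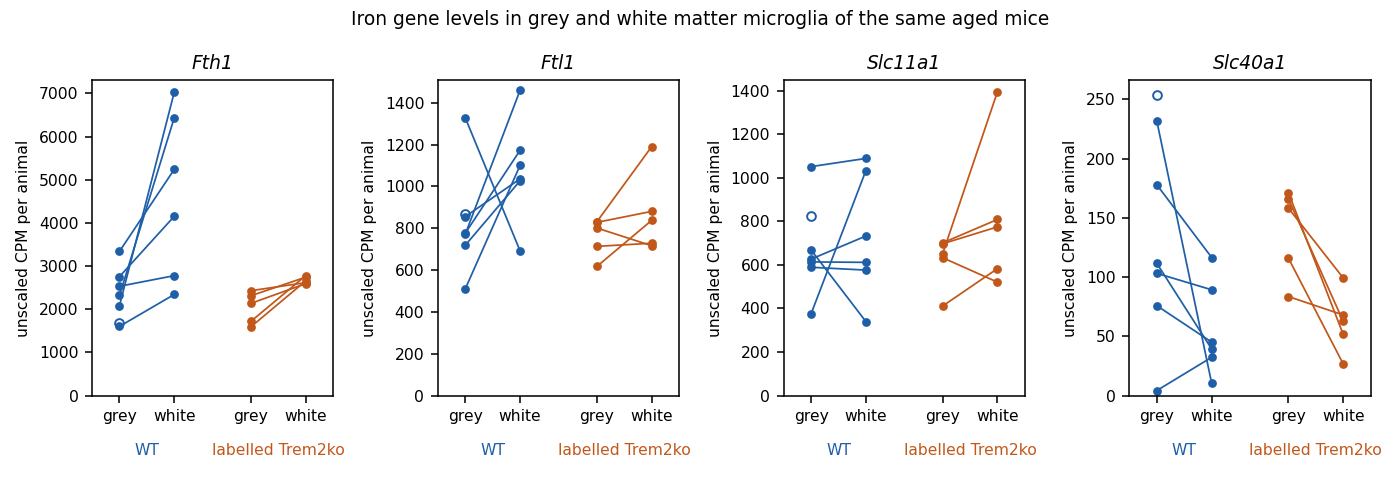
Level of Fth1, Ftl1, Slc11a1 and Slc40a1 in CPM (vertical axis) in grey and white matter, 1 point per animal, with lines joining the tissues of 1 animal and an open circle for A1, which has grey matter cells only. Fth1 lines all go up towards white matter, and Slc40a1 lines go down in 10 of 11 animals.

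In the edgeR quasi-likelihood test with the animal as a block, Fth1 was 1.95-fold higher in WT white matter (log2 0.96 ± 0.19 SE, 6 of 6 animals). It ranked 13 of 11437 genes by p (p = 0.000113, edgeR) and missed the threshold after Benjamini-Hochberg adjustment over all genes (adjusted p = 0.0986). None of the 5 members that could be tested passed, against 0.035% of all genes, and 2 of the 5 had an unadjusted p under 0.05, against 5.25% of all genes (600 genes). In Trem2ko-labelled animals Fth1 was 1.39-fold higher (log2 0.47 ± 0.21 SE, p = 0.0358, adjusted p = 1, edgeR). There, 0% of genes passed, 2.82% (323 genes) had an unadjusted p under 0.05, and Fth1 was the only member among them. Without A12 the change was log2 0.41 (p = 0.106, edgeR). The difference between the 2 tissue effects was -0.49 ± 0.28 SE (p = 0.0987, adjusted p = 1, edgeR), so it was not resolved; no gene passed (0%), and 2.54% (291 genes), no member among them, had an unadjusted p under 0.05.

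Averaged over both genotypes, a contrast added after the data were seen, Fth1 was 1.64-fold higher in white matter (log2 0.72 ± 0.14 SE, p = 9.32e-05, adjusted p = 0.0627, edgeR). Here 0.122% of genes and no member passed, 4.91% of genes and 2 members (Fth1 and Ftl1) had an unadjusted p under 0.05, and without A12 the adjusted p was 0.224. An exact two-sided test that flips the sign of each animal's log2 ratio gave p = 0.000977 for Fth1, the smallest p that 11 animals allow (geometric mean ratio 1.58). It was one of 5 such tests, 1 for each member but Tfrc, with no adjustment. Leaving out single animals in turn moved the WT value between 0.74 (without A4) and 1.11. Without cells that held 3 or more markers of another cell type it was 1.53. That setting left fewer than 5 cells in a tissue of A2, A3, A5 and A6. The value therefore rests on A4 and A7 only, and A4 had the widest gap of all animals. White matter holds more oligodendrocytes, and 5 of 10 listed oligodendrocyte markers could be read. Their summed level was 162 to 468 CPM in WT white matter and 125 to 429 in WT grey matter, and higher in white matter in 7 of 11 animals. Their part in the Fth1 difference was not tested. The value without marker-positive cells is no such test, since that setting drops cells with markers of any other listed type.

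Ftl1, the light chain that helps the iron core form, leaned the same way with less certainty. Its level in WT white matter was 691 CPM in A2, 1036 in A3, 1460 in A4, 1172 in A5, 1100 in A6 and 1027 in A7. In grey matter it was 1328, 856, 772, 776, 510 and 718 CPM in these animals, and 868 CPM in A1. Only A2 went the other way among WT animals, and in A3 to A7 every white matter value lay above every grey matter value. Trem2ko-labelled white matter held 716, 1190, 880, 728 and 837 CPM in A8 to A12, and grey matter held 801, 831, 828, 713 and 617 CPM. These groups overlapped, and A8 was lower in white matter. In all, 9 of 11 animals were higher in white matter, by the median over cells 7 of 11. The edgeR change was 1.45-fold in WT (log2 0.54 ± 0.24 SE, p = 0.0392, adjusted p = 0.917) and 1.18-fold in Trem2ko-labelled animals (0.24 ± 0.26 SE, p = 0.361, adjusted p = 1). The exact two-sided sign-flip test over 11 animals gave p = 0.0977 with a mean ratio of 1.24. Ftl1 has processed copies elsewhere in the genome. Ftl1-ps1 and Ftl2-ps took 1.53% and 2.26% of the reads shared with Ftl1 in the aged data, and reads of near-identical copies may be split between them.

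Slc40a1, the only known exporter of iron from cells, was lower in white than in grey matter in 10 of 11 animals. In WT white matter it stood at 32.3 CPM in A2, 45.1 in A3, 39.2 in A4, 89.3 in A5, 10.2 in A6 and 116.5 in A7. In grey matter the same animals held 4.26, 75.8, 111.5, 103.1, 231.4 and 177.8 CPM, and A1 held 253.7. A2 was the only animal with more in white matter, and the groups overlapped. Trem2ko-labelled white matter held 68.0, 51.5, 26.6, 62.5 and 99.2 CPM in A8 to A12, and grey matter held 83.5, 171.2, 115.9, 166.0 and 158.2 CPM. All 5 of these animals were lower in white matter, as were 3.62% of all genes. Lower in all 6 WT animals were 1.32% of genes and in all 11 animals 0.131%, with no member among them. Within both genotypes the highest white matter animal lay inside the grey matter range.

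The spread of Slc40a1 was wide, and no test passed. edgeR gave a log2 change of -0.64 ± 0.73 SE in WT (p = 0.398, adjusted p = 1.00) and of -1.19 ± 0.72 SE in Trem2ko-labelled animals (p = 0.118, adjusted p = 1; -1.33 without A12). The difference between these was -0.55 ± 1.02 SE (p = 0.597, edgeR). Averaged over both genotypes it was 1.88-fold lower (log2 -0.91 ± 0.51 SE, p = 0.0936, adjusted p = 1, edgeR), and the exact two-sided sign-flip test over 11 animals gave p = 0.0918. The WT value hung on single animals and on the cells used. It was -0.07 without A6, -1.22 without A2 and -0.07 with cells of at least 50000 reads. Without cells that held 3 markers of another type it was -1.60. There it rests on A4 and A7 only, since A2, A3, A5 and A6 kept fewer than 5 cells in a tissue. The same setting moved the Trem2ko-labelled value to -0.19.

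Few cells carry most Slc40a1 reads, so the share of cells with a read was also taken after drawing 20000 reads from each cell. In WT white matter 7.14% to 47.1% of cells (median 21.5%, 6 animals) held a Slc40a1 read, and in WT grey matter 7.69% to 72.2% (median 38.5%, 7 animals). In Trem2ko-labelled animals the share was 12.1% to 20.6% in white and 25.3% to 45.8% in grey matter. It was lower in white matter in 10 of 11 animals, again all but A2. The drawing left out 11 WT grey, 5 WT white and 2 Trem2ko white matter cells with fewer reads. Border-associated macrophages, which line vessels and meninges, also express Slc40a1. Of their 9 markers 7 could be read, and their summed level was 206 to 1741 CPM in WT grey and 86.8 to 316 in WT white matter, and lower in white matter in 9 of 11 animals. Nearly all of it was Stab1 (200 to 1737 CPM in WT grey matter), while the defining markers Mrc1 and Cd163 stood at 0 to 0.761 and at 0 CPM in the WT libraries of both tissues. Ms4a7 reached 68.1 CPM in 1 WT grey matter library and 6.05 CPM at most in WT white matter. In Trem2ko-labelled grey matter Pf4 reached 31.3, Cd163 5.08, F13a1 3.97 and Mrc1 1.17 CPM, against at most 2.22, 0, 0.346 and 0.094 CPM in white matter. Cbr2 and Ms4a7 went the other way, with at most 0.879 and 0.476 CPM in grey and 6.23 and 0.555 CPM in white matter. By the median over animals Pf4 was lower in grey (0.350 CPM) than in white matter (1.11 CPM). Their part in the Slc40a1 difference was not tested.

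**Figure D2:**
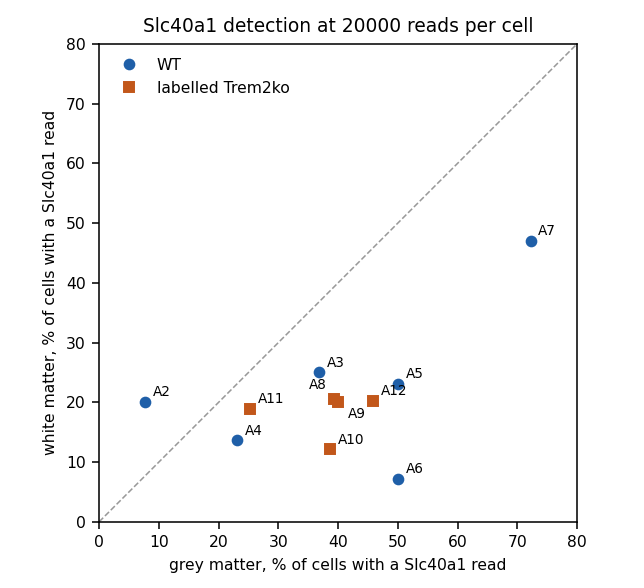
Percent of cells with at least 1 Slc40a1 read after drawing 20000 reads per cell, in white matter (vertical axis) against grey matter (horizontal axis), 1 point per animal, with the line of equal shares. The points of 10 of 11 animals lie below the line, and A2 lies above it.

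Slc11a1, which moves divalent metals out of phagosomes, showed no consistent lean. WT white matter held 340 CPM in A2, 733 in A3, 1034 in A4, 576 in A5, 1090 in A6 and 612 in A7, and grey matter held 669, 627, 376, 589, 1052 and 614 CPM, with 823 in A1. White matter was higher in 3 of 6 WT animals, and the ranges nearly coincided. Trem2ko-labelled white matter held 775, 1396, 809, 521 and 583 CPM in A8 to A12, against 697, 652, 701, 633 and 411 CPM in grey matter, higher in all but A11. The log2 changes were 0.22 ± 0.28 SE in WT (p = 0.442) and 0.39 ± 0.30 SE in Trem2ko-labelled animals (p = 0.211), both with an adjusted p of 1 in edgeR. The exact two-sided sign-flip test over 11 animals gave p = 0.287.

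Hmox1, induced by heme and oxidative stress, was read in a minority of cells. Its WT white matter levels were 4.46, 56.5, 110.7, 160.4, 4.38 and 66.0 CPM in A2 to A7, and its grey matter levels were 13.6, 82.1, 132.4, 66.7, 5.26 and 4.78 CPM, with 0.837 in A1. Animals low in one tissue were low in the other, except A7. Trem2ko-labelled white matter held 54.6, 49.1, 96.5, 89.4 and 66.8 CPM in A8 to A12, and grey matter 66.8, 108.5, 0.953, 72.5 and 106.2 CPM. The median over cells was 0 in 25 of 29 libraries, and in 16 of 29 more than 50% of the Hmox1 reads came from 1 cell. By CPM white matter was higher in 4 of 11 animals (edgeR log2 0.43 ± 0.95 SE in WT, p = 0.659, and 0.33 ± 1.03 SE in Trem2ko-labelled animals, p = 0.754), and the exact two-sided sign-flip test over 11 animals gave p = 0.466. By the share of cells with a read, after drawing 20000 reads from each cell, white matter was higher in 8 of 11 animals and lower in 3, so the 2 measures went different ways.

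Tfrc, the route for transferrin-bound iron, was near the limit of detection in sorted microglia. It lay between 0 and 7.80 CPM, with a cell median of 0 in 29 of 29 libraries, and was too low to be tested in any comparison. The highest aged values were 7.80 CPM in white matter of A2 and 3.35 and 1.90 CPM in grey matter of A1 and A3.

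**Figure D3:**
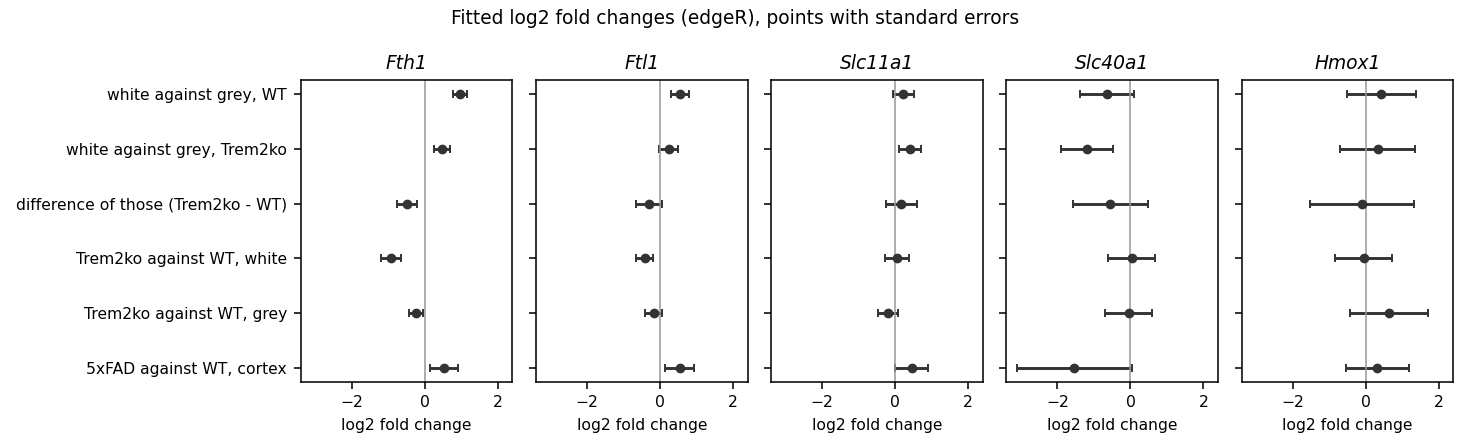
edgeR log2 fold change with its SE (horizontal axis) of Fth1, Ftl1, Slc11a1, Slc40a1 and Hmox1 in the 6 comparisons, with a line at 0. The bars of Slc40a1 and Hmox1 are longer than those of Fth1, and Fth1 stands clear of 0 in the WT tissue comparison and, to the other side, in the white matter genotype comparison.

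Between genotypes in white matter, Fth1 had the smallest p of the members, and none passed. The 5 Trem2ko-labelled animals lay between 2594 and 2780 CPM, against 2342 to 7033 CPM in the 6 WT animals, of which A6 lay below all 5 and A2 just under the highest of them. Fth1 was 1.90-fold lower (log2 -0.93 ± 0.27 SE, p = 0.00357, edgeR), which ranked 19 of 8439 genes but gave an adjusted p of 0.999. No gene passed in this comparison (0%), and 3.34% (282 genes), with 1 of the 5 members among them, had an unadjusted p under 0.05. The value was -0.91 without A12, and -0.58 when A13, with its 4 cells and a Trem2 level against its label, was added. Ftl1 was at log2 -0.42 ± 0.24 SE (p = 0.0958), Slc11a1 at 0.06 ± 0.33 SE (p = 0.870), Slc40a1 at 0.03 ± 0.65 SE (p = 0.960) and Hmox1 at -0.06 ± 0.79 SE (p = 0.943, all edgeR). The last 3 values lie within 1 SE of 0 and their intervals leave room for changes in either direction. Of all genes, 0.758% did not overlap between the groups, and no member was among them.

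In grey matter, Fth1 was at log2 -0.24 ± 0.19 SE (p = 0.228), Ftl1 at -0.17 ± 0.23 SE (p = 0.452), Slc11a1 at -0.19 ± 0.27 SE (p = 0.492), Slc40a1 at -0.05 ± 0.64 SE (p = 0.937) and Hmox1 at 0.64 ± 1.07 SE (p = 0.554), each with an adjusted p of 1.00 in edgeR. No member passed against 0.012% of all genes, none of the 5 had an unadjusted p under 0.05 against 2.6% (217 genes), and none separated the groups against 0.683%. Whether the genotype difference in Fth1 is larger in white than in grey matter is the difference of tissue effects given above, which was not resolved.

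Without A12, no member passed in any of these comparisons, with these values. White against grey matter in the other 4 Trem2ko-labelled animals was at log2 0.18 for Ftl1, 0.35 for Slc11a1 and 0.68 for Hmox1. The difference from the WT tissue effect was -0.55 for Fth1, -0.36 for Ftl1, 0.13 for Slc11a1 and -0.70 for Slc40a1, and Hmox1 turned sign, to 0.26. Between genotypes in white matter, Ftl1 was at -0.38, Slc11a1 at 0.18 and Hmox1 at -0.0076, and Slc40a1 turned sign, to -0.17. In grey matter the 5 values were -0.17 (Fth1), -0.088 (Ftl1), -0.055 (Slc11a1), -0.075 (Slc40a1) and 0.48 (Hmox1). Averaged over both genotypes, Fth1 was at 0.68, Ftl1 at 0.36, Slc11a1 at 0.29, Slc40a1 at -0.98 and Hmox1 at 0.55.

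In prefrontal cortex at 6 to 7 months, 4 5xFAD animals were set against 2 WT animals, which limits the precision. Fth1 stood at 2012 CPM in A91, 2608 in A93, 4335 in A99 and 3875 in A100, against 2581 in A132 and 2399 in A173. A99 and A100 were high, A91 was the lowest of the 6, and the groups overlapped. Ftl1 stood at 640, 967, 982 and 985 CPM against 800 and 555 CPM, and Slc11a1 at 527, 335, 607 and 752 against 501 and 391 CPM. The log2 changes were 0.53 ± 0.38 SE for Fth1 (p = 0.195), 0.54 ± 0.41 SE for Ftl1 (p = 0.216) and 0.45 ± 0.46 SE for Slc11a1 (p = 0.349), all with an adjusted p of 1.00 in edgeR. Slc40a1 stood at 97.0 CPM in A91, 0.429 in A93, 14.2 in A99 and 12.2 in A100, against 42.6 in A132 and 149.1 in A173. Among the 4 5xFAD animals with 5 or more cells, A91, with 7 cells, thus had the lowest ferritin and the highest ferroportin reads. The log2 change of Slc40a1 was -1.53 ± 1.56 SE (p = 0.347, edgeR), and it was -3.15 without A91, -0.49 without A173 and 0.37 with the 3 cells of A187 added. Hmox1 stood at 90.4, 50.4, 84.6 and 172 CPM against 93.0 and 80.2 CPM. Markers of border-associated macrophages summed to 595 CPM in A99 and 384 CPM in A173, with reads of 8 of 9 markers in both. In the other libraries they summed to 149 to 273 CPM. In A99 16 of 23 cells and in A173 17 of 27 cells held 3 or more markers of another cell type, against 0 to 3 cells in the other libraries. The part of such cells in these levels was not tested. No gene passed (0%), 3.26% (315 genes) and no member had an unadjusted p under 0.05, and 11.8% of genes but no member separated the groups.

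The pool of postnatal day 14 gave another profile, described here as 1 library with no test. Fth1 stood at 843 CPM, Ftl1 at 283, Slc11a1 at 185, Slc40a1 at 342.5, Hmox1 at 17.3 and Tfrc at 12.5 CPM. Fth1, Ftl1 and Slc11a1 were below, and Slc40a1 and Tfrc above, every aged, 5xFAD or adult WT library of 5 or more cells. Per kilobase of the first transcript, Slc40a1 was at 102 and Slc11a1 at 80.0 CPM there, and over all annotated exons the order turned (38.1 and 50.0). Age, strain, reporter allele and treatment differ together between this pool and the other groups and cannot be told apart.

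Beyond the 6 genes, 81 genes of iron storage, uptake, release, export, heme handling, regulation, mitochondrial iron use and defence against iron-driven oxidation were listed, the 6 members included. In WT white against grey matter 60 could be tested, of which 36 had a positive and 24 a negative log2 change. Their median was 0.25, against 0.11 over all genes tested, and 6 were higher and 1 lower at an unadjusted p under 0.05 (3.32% and 1.92% of all genes). None passed adjustment in any comparison. All 5 tested storage genes (Fth1, Ftl1, the ferritin receptor for autophagy Ncoa4 and the iron chaperones Pcbp1 and Pcbp2) had a positive sign in WT white matter (median 0.34; 54.3% of all genes tested were positive there). The genotype comparisons share these WT libraries, and the median of the 5 genes was -0.53 in white matter and -0.24 in grey matter there, against 0.08 and 0.08 over all genes. Ncoa4 and the Pcbp genes had unadjusted p-values of 0.111 or more in these 3 comparisons.

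In WT, the genes with the smallest p on the list after Fth1 were Gsr, Prdx1 and Lrp1. Gsr, which restores glutathione, was at 3.99 to 29.5 CPM in white matter (median 12.0) and at 0 to 7.85 in grey matter (median 0), with a log2 change of 3.8 ± 1.4 SE (p = 0.0145, edgeR). Prdx1, a peroxide-reducing enzyme, was at 104 to 365 CPM in white matter (median 158) and 35.7 to 192 in grey matter (median 142), with 0.91 ± 0.37 SE (p = 0.0255, edgeR). Lrp1, a scavenger receptor that takes up heme-hemopexin, was at 81.3 to 462 CPM in white matter (median 240) and 243 to 999 in grey matter (median 374), with -0.98 ± 0.42 SE (p = 0.0315, edgeR). All 3 overlapped between tissues and had adjusted p-values of 0.842 to 0.907.

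In Trem2ko-labelled animals 36 of 60 listed genes were positive and 24 negative (median 0.12, against 0.00 over all genes), with 4 higher and 1 lower at an unadjusted p under 0.05 (1.41% and 1.42% of all genes). Slc39a8, a metal importer, was at 0.692 to 65.7 CPM in white matter (median 19.7) and 0 to 10.1 in grey matter (median 2.06), with 3.71 ± 1.5 SE (p = 0.0259, edgeR). Abcb10, a mitochondrial transporter, had a median of 6.92 CPM in white matter and of 0 CPM in grey matter. The difference of tissue effects gave 29 positive and 31 negative genes (median -0.08, against -0.11), with 3 higher and 0 lower at an unadjusted p under 0.05 (1.02% and 1.52% of all genes). Among these were Lrp1 at 1.40 ± 0.60 SE (p = 0.0327) and Abcb10 at 6.38 ± 2.81 SE (p = 0.0389, both edgeR), and Abcb10 rests on libraries at or near 0. Averaged over both genotypes, 36 genes were positive and 24 negative (median 0.29, against 0.04), with 6 higher and 0 lower (3.08% and 1.83% of all genes). Nfe2l2, the regulator of the antioxidant response that also drives Fth1 and Hmox1, was among these at 0.46 ± 0.19 SE (p = 0.0253, edgeR), with WT medians of 337 (white matter) and 237 CPM (grey matter). So was Smad6, an inhibitor of BMP signalling, which had 0 reads in every WT grey matter library and a median of 0.266 CPM in WT white matter.

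Between genotypes the listed genes were split evenly. In white matter 27 of 54 were positive (median 0.01, against 0.08 over all genes), and Fth1 was the only one with an unadjusted p under 0.05 (1.78% of all genes were higher and 1.56% lower). Fech, which inserts iron into heme, had medians of 7.84 CPM in WT and 58.9 CPM in Trem2ko-labelled white matter (log2 1.97 ± 1.10 SE, p = 0.0903, edgeR). Iscu, the scaffold of iron-sulfur clusters, had medians of 226 and 431 CPM (0.81 ± 0.45 SE, p = 0.0920, edgeR). In grey matter 24 of 52 were positive (median -0.05, against 0.08), with 1 higher and 1 lower (1.43% and 1.17% of all genes). Lrp1 was the lower one, at 153 to 264 CPM against 243 to 999 CPM in WT (log2 -1.35 ± 0.39 SE, p = 0.00278, adjusted p = 1.00, edgeR), and Iscu the higher one, with medians of 421 and 257 CPM (0.82 ± 0.35 SE, p = 0.0314, edgeR). Next came Nfe2l2 at 0.52 ± 0.32 SE (p = 0.119) and Urod, of heme synthesis, at 1.48 ± 0.96 SE (p = 0.140, both edgeR).

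Without A12 the listed genes with an unadjusted p under 0.05 were fewer in each of these comparisons but the white matter genotype comparison, where there was 1 in both. In Trem2ko-labelled tissues 33 of 60 were positive (median 0.22) and 0 had such a p, with Slc39a8 at 4.10 ± 1.92 SE (p = 0.0501, edgeR). For the difference of tissue effects 30 were positive (median -0.0096, against -0.086) and 0 had such a p (0.991% of all genes were higher and 1.38% lower). Lrp1 was at 1.38 ± 0.67 SE (p = 0.0555) and Abcb10 at 5.52 ± 3.22 SE (p = 0.109, both edgeR). Averaged over both genotypes 38 were positive (median 0.24, against 0.055), with 3 higher and 0 lower (2.86% and 1.53% of all genes). Nfe2l2 was at 0.41 ± 0.22 SE (p = 0.0730, edgeR). Between genotypes 24 of 55 were positive in white matter (median -0.069, against 0.061), with Fth1 the only one under 0.05 (p = 0.00924, edgeR). Of all genes, 1.30% were higher and 1.42% lower there. Fech was at 1.98 and Iscu at 0.70. In grey matter 25 of 53 were positive (median -0.055, against 0.077), where 1.15% of all genes were higher and 1.03% lower. Lrp1 was lower at -1.44 ± 0.44 SE (p = 0.00424) and Iscu stood at 0.77 ± 0.39 SE (p = 0.0668, both edgeR). No listed gene passed adjustment without A12.

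In 5xFAD against WT prefrontal cortex 31 of 53 listed genes were positive (median 0.26, against 0.13 over all genes), with 2 higher and 0 lower at an unadjusted p under 0.05 (1.82% and 1.44% of all genes). Bach1, the heme-sensing repressor of Hmox1, was at 1.46 to 109 CPM in 5xFAD (median 49.3) and at 0.710 and 1.71 CPM in WT (log2 5.53 ± 2.20 SE, p = 0.0287, edgeR). Smad7, an inhibitor of BMP and TGF-beta signalling, was at 4.86 to 48.7 CPM against 0.473 and 0.476 CPM (5.84 ± 2.44 SE, p = 0.0358, edgeR). Abcb10 at -5.10 ± 2.80 SE (p = 0.0957) and Slc25a28, a mitochondrial iron importer, at 5.44 ± 3.16 SE (p = 0.113, both edgeR) were low, with medians of 0 and 1.38 CPM in 5xFAD and of 22.8 and 0.380 CPM in WT.

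Genes whose log2 level ran most closely with a member were ranked by Pearson r over the 22 paired aged libraries, among 5577 genes with a mean of at least 20 CPM. The libraries share animals, plates and depth, so r is a description. Fth1 was nearest to the lysozyme gene Lyz2 (r = 0.874), Rpl41 (0.830) and the apolipoprotein gene Apoe (0.823), and Ftl1 to the galectin gene Lgals3 (0.771), Fth1 (0.750) and Fam214b (0.745). The 2 ferritin chains thus ran together, while Slc40a1 ran against Ftl1 (-0.52) and only weakly against Fth1 (-0.14). Slc11a1 was nearest to Vkorc1 (0.803), Hvcn1 (0.727) and Tpi1 (0.708), Slc40a1 to Nadk (0.874), Mrpl43 (0.862) and Chp1 (0.842), and Hmox1 to Cdk13 (0.788), Ethe1 (0.787) and Exosc7 (0.770).

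In the 10x data, 23927 cells passed into 31 clusters, made without the iron genes. Microglia-like cells were 11921 cells in 7 clusters in which all 15 markers were detected. The labels name 3 WT grey matter and 2 WT white matter pools of C57BL/6J males (24 months, 3 or 4 mice each) and 4 ApoeKO white matter pools of males (B6.129P2-Apoetm1Unc/J, 18 months, 2 mice each). Of the WT white matter pools, 1 carries the genotype ApoeKO beside its WT title. Barcodes carry 5 endings in the first table and the prefixes L7 and L8 in the second, which no label ties to a pool or tissue. So values are given by ending or prefix, with exact Poisson 95% intervals that cover counting error only, and no groups were compared. Libraries shared 0 to 11 barcodes a pair, at most 0.304% of the smaller one.

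The 7 sets of microglia fell at different ferritin levels. Fth1 stood at 3290 CPM for the ending 1_1_1 (1146 cells), 3648 for 1_1_2 (2501 cells) and 3209 for 1_3 (2662 cells). It stood at 8908 CPM (8869 to 8947) for 1_2_1 (2370 cells) and 8584 (8544 to 8625) for 1_2_2 (2186 cells), and at 5067 for L7 (329 cells) and 5333 for L8 (727 cells). The endings 1_2_1 and 1_2_2 were therefore above all others, with L7 and L8 between. Ftl1 followed the same split at the top, at 4027 and 3399 CPM for 1_2_1 and 1_2_2 against 1796 to 2349 in the other 5. Hmox1 did too, at 70.9 and 53.9 CPM against 20.5 to 33.3. Slc40a1 ran the other way, at 61.7 CPM (58.5 to 65.1) and 57.2 (54.0 to 60.6) for 1_2_1 and 1_2_2, against 138 to 168 CPM in the other 5. Slc11a1 (105 to 204 CPM) was highest for 1_2_1, but 1_2_2 at 137 CPM lay below 1_1_1 at 169, so it did not follow the split. Tfrc lay between 7.39 and 15.4 CPM throughout.

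The sets differed in the microglial clusters they held, and the clusters differed in these genes. Cluster 20, led by Spp1, Ccl4, Ccl3, Mmp12, Lpl and Gpnmb (1050 cells), had the highest Fth1 at 15243 CPM, Ftl1 at 6704, Hmox1 at 129, Slc11a1 at 205 and Tfrc at 21.2, and the lowest Slc40a1 at 32.4 CPM. Cluster 7, led by Rxrg and Slamf9 (2991 cells), and cluster 6, led by the interferon-induced genes Cxcl10 and Ifit2 (428 cells), held 6383 and 6873 CPM of Fth1 and 67.3 and 52.5 CPM of Slc40a1. Cluster 3, led by Upk1b and including P2ry12 among its top genes (4734 cells), held 3235 CPM of Fth1 and the highest Slc40a1, 174 CPM. Clusters 1, 5 and 16 lay near cluster 3, with 3156 to 3871 CPM of Fth1 and 133.5 to 161 CPM of Slc40a1. These are descriptions of clusters, with no test.

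**Figure D4:**
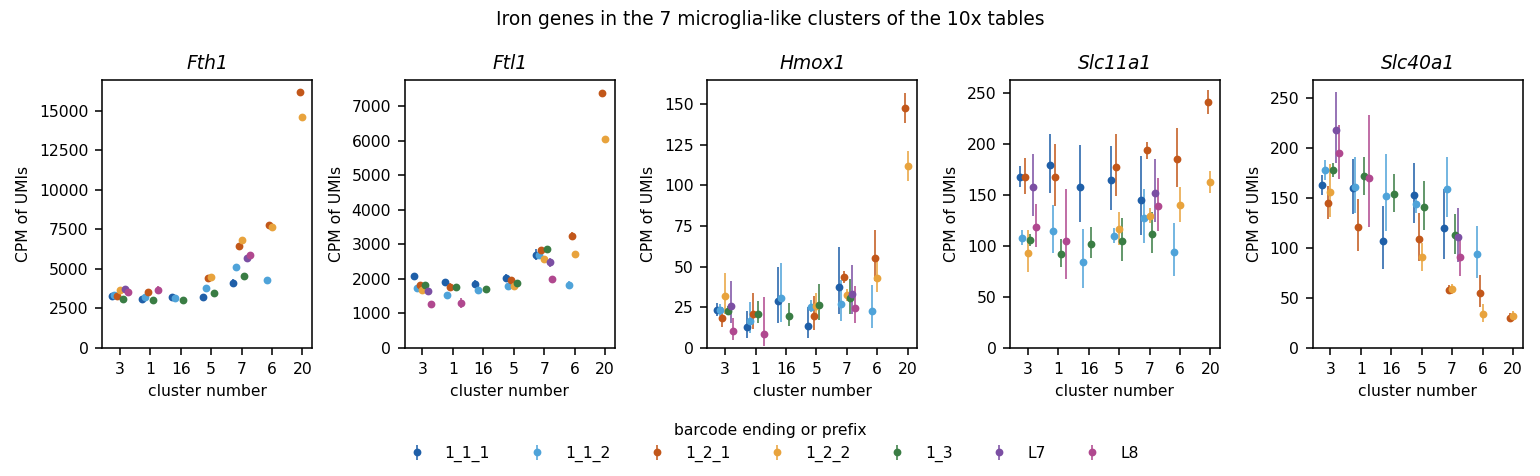
Level in CPM (linear axis from 0) of Fth1, Ftl1, Hmox1, Slc11a1 and Slc40a1 in the 7 microglia-like clusters, 1 point per barcode ending or prefix with at least 50 cells, with exact Poisson 95% intervals. In the endings 1_2_1 and 1_2_2, the only ones with enough cells of cluster 20, Fth1 reaches 16163 and 14609 CPM there and Slc40a1 stands at 30.4 and 32.1 CPM.

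Within single libraries, only clusters with at least 50 cells there were set side by side, which left clusters 3 and 7 for L7 and clusters 1, 3 and 7 for L8. Among these, cluster 3 had the highest Slc40a1 in 7 of 7 endings or prefixes, from 145 to 219 CPM, with Fth1 at only 3074 to 3709 CPM. Cluster 20 had at least 50 cells for 1_2_1 and 1_2_2, and in both it had the highest Fth1 (16163 and 14609 CPM) and the lowest Slc40a1 (30.4 and 32.1 CPM). In the other 5 sets cluster 7 had the highest Fth1 and Ftl1 of the clusters compared, and the order of the remaining clusters varied between sets. Within cluster 7, Fth1 still ranged from 4123 to 6798 CPM and Slc40a1 from 58.1 to 159 CPM, with 1_2_1 and 1_2_2 at the high and low ends. Clusters 7 and 20 made up 51.5% and 21.1% of microglia for 1_2_1 and 50.4% and 21.0% for 1_2_2. For L7 they made up 38.6% and 3.95% and for L8 31.9% and 6.05%, and for the other 3 endings 4.36% to 5.60% and 0.45% to 0.56%. Cells of cluster 20 were deeper, at a median of 11421 UMIs per cell, than those of clusters 3 (6758) and 7 (7674). CPM divides by this depth, and the part of cell size in the levels was not tested.

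Across the 13 named cell classes of the 10x data, the 6 genes marked different cells. Microglia-like cells had the highest Slc11a1, at 144 CPM (142 to 147), against 74.4 CPM in border-associated macrophage-like and 58.1 in neutrophil-like cells and 3.6 to 14.3 CPM in the other 10 classes. Fth1 was highest in border-associated macrophage-like cells (7402 CPM), choroid plexus epithelium-like (7294) and ependymal cell-like cells (7042), ahead of microglia (5941). The range over libraries within microglia, 3209 to 8908 CPM, covers all of these values. Ftl1 was highest in border-associated macrophage-like cells (5446 CPM), followed by microglia at 2745 and neutrophil-like cells at 2699 CPM. Hmox1 was highest in border-associated macrophage-like cells too (135 CPM), then neutrophil-like cells (56.2), with microglia at 41.8 CPM.

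The transport genes at the cell surface peaked outside microglia. Slc40a1 was highest in endothelial cell-like cells (327 CPM, 315 to 338.5), then neutrophil-like (249, 90 cells), pericyte or smooth muscle cell-like (216) and border-associated macrophage-like cells (205), with microglia at 114 CPM (112 to 116). In B cell-like cells (61 cells) it had 0 UMIs, which allows up to 5.80 CPM at 3 UMIs and 7.13 CPM at the exact Poisson limit. Tfrc was highest in endothelial (325 CPM) and pericyte-like cells (181), then astrocyte-like (100) and neuron-like cells (52.0). In microglia it was 10.8 CPM (10.1 to 11.5) with a UMI in 6.53% of cells at a median of 7258 UMIs. In T or NK cell-like cells it was 10.4 CPM (8.49 to 12.5) with a UMI in 5.75% at 5960 UMIs, close to the microglial level. Choroid plexus epithelium-like cells held less, at 4.61 CPM (3.42 to 6.08) with a UMI in 2.97% at 4691 UMIs. Background of free RNA was not estimated, so its part in these low levels was not tested. Slc40a1 had a UMI in 47.9% of microglia and in 3.41% of T or NK cell-like cells. Unnamed were 6 clusters (1950 cells), among them 1 of 337 cells that matched the monocyte list best but was led by class II antigen-presentation genes, and no doublet caller was run.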

How the data were processed

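The authors deposited raw read counts per gene and cell for Smart-seq2 and raw UMI counts per gene and barcode for 10x, per the file headers and values. The tools named in the submitters' processing notes are Cell Ranger 4, Trim Galore, bcl2fastq and FastQC, and the build is mm10. For the Smart-seq2 reads an aligner and a counter are not given in the sources used here. All 6 members, the gene lists and the tests were chosen with earlier results of these data known.

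The aged table joins 2 parts (489 and 358 cells) with different symbols, so 46 renamed pairs were joined, and 4491 genes at 0 in every cell of 1 part and 243 at 0 everywhere were left out, which kept 13301. Reads were summed per animal and tissue (at least 5 cells) and tested with edgeR 4.0.16 (quasi-likelihood, robust, TMM, filterByExpr, Benjamini-Hochberg over all genes tested, threshold 0.05). The same functions were run on simulated counts with a set spread and no animal effect, and no result here draws on that run. Precision follows the depth of each library and, above all, the number of animals. The SE is the log2 change over the square root of F, an approximation. White and grey matter (22 libraries) were fitted together, and the animal entered as a block, since the labels name the animal of each cell. As a check, deviations correlated by 0.009 to 0.120 within an animal, and 5 of 11 animals matched themselves best. The grey matter sum of A5 holds 33 samples from 31 wells, since repeat listings (r of 0.937 and 0.958 with the first listing, at most 0.441 with other cells) were left in.

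Printed animal levels are CPM without TMM scaling. 10x cells were clustered with scanpy 1.11.5 and leidenalg 0.10.2 (2000 variable genes without iron genes, resolution 1) and named from marker lists, and clusters led by genes that go against the best list were left unnamed. The 11224 columns that no prefix set apart were not used. Named were the 6 members, the 4 iron-list genes with the smallest p in each comparison and the 3 genes most like each member, and a listed gene that met this rule is not reported here. Alternatives were limma 3.58.1 (pseudocount 1), DESeq2 1.42.0, other scalings, filters, cells, plates, sex, pairing and each left-out animal. Transcripts and positions are from GENCODE M21 (GRCm38).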

Additional observations from a re-analysis of the deposited data

Results flagged for a closer look

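Within groups of 4 to 10 animals, 1 animal stood far from the others in 5 of 30 tests of a member in a group. The rule, the gap to the next animal over the range, assumes normal values. CPM near 0 do not follow this and the tests share animals, so no rate by chance is set beside the count. Among 5xFAD animals with 5 or more cells, A91 had the lowest Ftl1 (639.7 CPM, against 967 to 985 in the other 3) and the highest Slc40a1 (97.0 CPM, against 0.429 to 14.2). This library held 7 cells. In Trem2ko-labelled grey matter, A12 had the lowest Slc11a1 (411 CPM, against 633 to 701), and A12 is the animal whose Trem2 level went against its label in white matter. Tfrc was highest in A10 of Trem2ko-labelled white matter (0.277 CPM) and in A2 of WT white matter (7.80 CPM, from 20% of 10 cells), both levels of few reads.

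In the pool of postnatal day 14, which entered no comparison, Slc40a1 stood at 342.5 CPM and Tfrc at 12.5 CPM. The highest values among the other libraries of at least 5 cells were 253.7 CPM (A1, grey matter) and 7.80 CPM (A2, white matter).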

How the results depend on the processing

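Depth, cell numbers of 7 to 99 per library and 2 WT animals in prefrontal cortex limit all comparisons, and Slc40a1 and Hmox1 most, since few cells carry their reads. Over 790 alternative values of single members, 65 had the opposite sign of the reported value: 1 of Fth1, 1 of Ftl1, 15 of Slc11a1, 23 of Hmox1 and 25 of Slc40a1, and none of these reported values had passed the threshold. The cause was not tested for any of them.

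No member passed in the reported tests. In WT tissues, DESeq2 called 1 member (Fth1, adjusted p = 0.0308). For the mean of both genotypes, 1 member, Fth1, was called with DESeq2 (adjusted p = 0.0343), with no filter on low genes (0.0471) and with the mean of per-cell CPM (0.0204), and leaving out single animals gave 0 to 1 members called (1 without A2, adjusted p = 0.0229). No other count of called members moved from 0. The shares of all genes called under these alternatives are not given here, and the shares given above belong to the reported edgeR tests. Whether these settings call more genes of any kind therefore cannot be read from these calls.

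Without the replicate block, the pairing by animal, no call changed, with 0 members called, and Fth1 stood at 1.07 in WT, 0.44 in Trem2ko-labelled animals, -0.63 for their difference and 0.76 for their mean (adjusted p = 0.0622, edgeR). Slc40a1 stood at -1.01 in WT without the block.

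Values of opposite sign (log2) were these. With only plates that held both tissues, Slc11a1 in Trem2ko-labelled tissues was -0.089, and for the difference of tissue effects Slc11a1 was -0.33, Slc40a1 0.25 and Hmox1 0.23. Without cells with 3 markers of another type, Hmox1 in Trem2ko-labelled tissues was -0.47, for the difference Slc11a1 was -0.56 and Slc40a1 1.41, between genotypes in white matter Slc11a1 was -0.39 and Hmox1 0.25, and in grey matter Slc40a1 was 0.0081. For the difference, that setting kept A4 and A7 as the only WT animals. The genotype comparisons lost A3 and A5 in white matter and A2, A3 and A6 in grey matter. With animals of fewer than 5 cells added, Hmox1 for the difference was 0.051, Slc11a1 and Slc40a1 in white matter -0.10 and -0.21, Fth1 and Ftl1 in grey matter 0.061 and 0.35, and Slc40a1 in prefrontal cortex 0.37. With the mean of per-cell CPM, Hmox1 for the difference was 0.73, Hmox1 in white matter 0.60 and Slc40a1 in grey matter 0.76. In the first part of the data only, an alternative chosen after seeing the data, Hmox1 for the difference was 0.43 and Slc40a1 in white matter -0.25. In white matter, Slc11a1 was -0.0035 and Slc40a1 -0.025 with RLE scaling, -0.0037 and -0.027 with DESeq2, Slc11a1 was -0.20 with sex as a covariate, and Slc40a1 was -0.011 among genes of at least 20 CPM. Hmox1 in white matter and Slc40a1 in grey matter were 0.089 and 0.028 unscaled, 0.059 and 0.077 with no filter, and 0.016 and 0.26 with cells of at least 50000 reads.

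Leaving out each animal in turn gave -0.083 to 0.43 (Slc11a1) and -0.13 to 0.81 (Hmox1) in WT tissues, and -0.42 to 0.77 (Hmox1) in Trem2ko-labelled tissues. It gave -0.050 to 0.47 (Slc11a1), -1.13 to 0.023 (Slc40a1) and -0.83 to 0.46 (Hmox1) for the difference, and -0.0041 to 0.59 (Hmox1) for the mean of both genotypes. Between genotypes it gave -0.23 to 0.21 (Slc11a1), -0.19 to 0.35 (Slc40a1) and -0.31 to 0.38 (Hmox1) in white matter, -0.27 to 0.19 (Slc40a1) in grey matter and -0.072 to 0.55 (Hmox1) in prefrontal cortex. In the 10x microglia, other clustering, a marker gate, per-cell means and a depth minimum moved member levels by ratios of 0.717 to 1.38.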

Other observations

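Libraries of fewer than 5 cells entered no test. A13 (labelled Trem2ko, 28 months) held 2595 CPM of Fth1, 414 of Ftl1, 138 of Slc11a1 and 3.9 of Slc40a1 in 4 white matter cells, and 720, 401, 2.84 and 1.42 CPM in 2 grey matter cells. A187 (5xFAD male, 5 months) held 1092 CPM of Fth1, 582 of Ftl1, 1042 of Slc11a1 and 377.5 of Slc40a1 in 3 cells, a ferroportin level above and an Fth1 level below those of all 5xFAD and WT prefrontal cortex libraries of 5 or more cells. The share of reads that went to the Ftl1 copy Ftl1-ps1 was 1.87% in the 5xFAD set and 7.21% in the pool of postnatal day 14, where Ftl1 itself had 952 reads. Copies of Fth1 took at most 0.141% in any set.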
